A study of Mus musculus with 9 samples.

Results

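The 36 genes described here encode p53, its main feedback inhibitor, a set of p53 targets, and the regulators and effectors of apoptosis. They were listed by gene symbol, by a choice made with earlier results of these data known. All 36 were found among the 38720 genes of the deposited count table. Reads were counted per gene in 20 mouse libraries of 6 groups, made from polyadenylated RNA of thymic epithelial cells (TEC) after sorting. Medullary cells (mTEC) were sorted as CD45-EpCAM+MHCII+Ly51-UEA1+ cells and cortical cells (cTEC) as CD45-EpCAM+MHCII+Ly51+UEA1- cells, where UEA1 is a lectin that binds medullary epithelium. Foxn1 encodes the forkhead factor on which TEC development depends, and nude mice lack its function.

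Both transgenic genotypes carry a FLAG-tagged Foxn1 on a bacterial artificial chromosome, in mice that are nu/nu. Heterozygous mice, written wt*/-::nu/nu in the labels, gave 2 mTEC and 3 cTEC libraries. Homozygous mice, written wt*/wt*::nu/nu, gave 2 mTEC and 3 cTEC libraries. In the deletion experiment, Foxn1-deleted cTEC (5 libraries) came from mice homozygous for beta5t-rtTA and for Foxn1fl/fl that also had a heterozygous tetO-Cre transgene. Control cTEC (5 libraries) had the same 2 homozygous loci without tetO-Cre, and both groups were taken 72 h after doxycycline. Cre in these mice removes exons 7 and 8 of Foxn1, and rtTA, the activator that doxycycline switches on, is named in the labels after beta5t, a thymoproteasome subunit of cTEC. The age of the mice, the number of animals per library and whether libraries of a group came from separate mice cannot be told from the labels. P-values therefore measure only the spread between these libraries, which may be technical.

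The p53 protein is a transcription factor that accumulates after DNA damage and other stress, and MDM2, itself a p53 target, marks it for degradation. Its targets arrest the cell cycle, repair damage, restrain growth signalling, or start apoptosis. In the mitochondrial pathway of apoptosis, BH3-only proteins neutralise the pro-survival members of the BCL2 family and free BAX and BAK to permeabilise mitochondria, after which APAF1 and caspase 9 form the apoptosome. Death receptors such as FAS instead recruit FADD and caspase 8 at the membrane, and the inhibitor of apoptosis (IAP) proteins restrain caspases or shape receptor signalling. In the thymus, medullary epithelium turns over as Aire-expressing cells mature, and p53 activity in mTEC is known to affect their differentiation.

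The RefSeq promoters (assembly GRCm38.p6, 250 bases before to 50 after a start site) of 4 members on which the results turn are shown with the motifs that they do or do not hold. Capitals mark GACGC, the core that the FOXN1 forkhead domain binds, on either strand, and, as runs of 10 capitals, matches to the p53 half-site consensus, which reads the same on both strands. No position in these 5 sequences belongs to both motifs. Cdkn1a, which was lower in heterozygous than homozygous cells of both subsets, has 2 RefSeq promoters, the upstream one at chr17:29090729-29091028 and the downstream one at chr17:29093519-29093818, both on the plus strand. Casp1, with the largest fall among the members in cTEC, has its promoter at chr9:5298267-5298566 on the plus strand. Trp53, which rose in mTEC, has its promoter at chr11:69580109-69580408 on the plus strand. Bmf, which rose in cTEC, has 3 promoters, of which the one with a GACGC, at chr2:118549637-118549936 on the minus strand, is shown.
Cdkn1a upstream: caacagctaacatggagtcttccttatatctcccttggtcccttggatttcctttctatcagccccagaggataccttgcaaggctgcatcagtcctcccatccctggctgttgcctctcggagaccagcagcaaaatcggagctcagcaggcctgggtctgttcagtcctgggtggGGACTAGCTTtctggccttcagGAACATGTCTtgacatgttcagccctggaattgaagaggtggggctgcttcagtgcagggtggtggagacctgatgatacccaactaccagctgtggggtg
Cdkn1a downstream: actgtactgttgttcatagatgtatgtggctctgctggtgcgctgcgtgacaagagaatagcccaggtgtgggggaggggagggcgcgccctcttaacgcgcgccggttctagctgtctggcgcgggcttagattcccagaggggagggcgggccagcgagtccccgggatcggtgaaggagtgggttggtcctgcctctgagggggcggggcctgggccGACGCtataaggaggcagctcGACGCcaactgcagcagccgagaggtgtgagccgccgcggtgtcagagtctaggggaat
Casp1: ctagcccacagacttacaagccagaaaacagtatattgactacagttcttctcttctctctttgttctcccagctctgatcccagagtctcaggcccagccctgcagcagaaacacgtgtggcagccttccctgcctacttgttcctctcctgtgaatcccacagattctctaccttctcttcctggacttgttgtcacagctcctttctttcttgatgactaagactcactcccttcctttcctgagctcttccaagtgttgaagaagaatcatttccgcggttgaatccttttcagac
Trp53: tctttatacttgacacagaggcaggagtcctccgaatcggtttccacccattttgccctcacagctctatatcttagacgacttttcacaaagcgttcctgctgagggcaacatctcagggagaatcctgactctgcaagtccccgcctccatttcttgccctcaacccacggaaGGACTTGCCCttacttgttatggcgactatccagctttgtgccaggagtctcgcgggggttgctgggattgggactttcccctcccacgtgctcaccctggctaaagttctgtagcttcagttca
Bmf: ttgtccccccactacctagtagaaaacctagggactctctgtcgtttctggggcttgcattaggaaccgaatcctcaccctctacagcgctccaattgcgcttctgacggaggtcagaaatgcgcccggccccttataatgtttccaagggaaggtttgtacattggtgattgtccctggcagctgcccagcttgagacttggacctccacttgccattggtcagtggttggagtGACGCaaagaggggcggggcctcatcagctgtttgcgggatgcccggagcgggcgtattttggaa
The upstream Cdkn1a promoter holds 2 p53 half-site matches and the downstream one 2 copies of GACGC, which begin at -30 and -9 from the start site. The Casp1 promoter holds neither motif, the Trp53 promoter 1 half-site match, and the Bmf promoter shown 1 GACGC that begins at -15. Of the other two Bmf promoters, the one at chr2:118544538-118544837 holds 1 half-site match and no GACGC, and the one at chr2:118547550-118547849 holds neither motif. Promoters were found for 31 of the 36 members, 44 in all; Pmaip1, Bik, Zmat3, Perp and Tnfrsf10b had none in the table. GACGC was present in 43.2% of these 44 promoters, in 39.0% of the 16852 promoters of genes tested in the transgenic libraries, and in 27.2% of all 32851 promoters. The p53 half-site was present in 18.2%, 7.16% and 8.36% of the same 3 sets, of which the members include p53 targets by choice. These matches describe letters in the windows and say nothing of binding in these cells.

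Library totals ran from 20719630 to 22372633 counts. Foxn1 had 488 and 502 CPM in heterozygous mTEC, against 307 and 329 CPM in homozygous mTEC, and 1144 to 1209 CPM in heterozygous cTEC, against 1299 to 1484 CPM in homozygous cTEC. It had 361 to 538 CPM in Foxn1-deleted cTEC and 351 to 579 CPM in control cTEC. The count spans the whole gene, so exons that Cre does not remove and RNA from the nude allele add to it, and it checks neither the deletion nor the transgene dose. In cTEC it ran with the labelled dose (heterozygous over homozygous, log2 fold change -0.36 ± 0.06, adjusted p = 0.000445), and in mTEC against it (0.66 ± 0.08, adjusted p = 1.68e-05). The directions given for mTEC therefore follow the labels and not the Foxn1 level. All 8 mTEC markers (such as Aire) were higher in mTEC than cTEC at both doses. In cTEC they summed to 755 to 942 CPM in heterozygous and 193 to 216 CPM in homozygous libraries, with 3 higher and 3 lower. In the deletion experiment they summed to 456 to 1774 CPM in Foxn1-deleted and 527 to 1734 CPM in control cTEC. The part of medullary cells in the cTEC results below was not tested. All 8 cTEC markers (such as Prss16 and Ccl25) were lower in heterozygous than homozygous cells of both subsets, and 6 of 8 were lower in Foxn1-deleted than control cTEC. Psmb11, which encodes beta5t and defines cTEC, was nearly absent from the deletion experiment, at 0 to 0.689 CPM in Foxn1-deleted and 0.410 to 1.79 CPM in control cTEC, against 101 to 107 CPM in heterozygous and 961 to 1053 CPM in homozygous transgenic cTEC. Both groups of the deletion experiment were homozygous for beta5t-rtTA, and the part of that locus in the Psmb11 values was not tested. Markers of other cells were also present: the summed level of 12 macrophage and dendritic cell markers was 112 to 117 CPM in heterozygous mTEC and 592 to 697 CPM in homozygous mTEC, against 7.43 to 8.71 CPM in heterozygous cTEC and 4.28 to 7.71 CPM in homozygous cTEC. None of these 12 was at 0 throughout a group, and 11 were lower in mTEC labelled heterozygous than homozygous. Of 6 B cell markers, summing to 19.1 to 22.98 CPM in mTEC labelled heterozygous and 42.3 to 51.3 CPM in mTEC labelled homozygous, 4 were lower and 1 higher. The 14 thymocyte markers summed to 45.3 to 46.1 CPM in heterozygous mTEC and 85.4 to 106 CPM in homozygous mTEC, and to 11.1 to 19.1 CPM in heterozygous cTEC and 65.7 to 106 CPM in homozygous cTEC. Fibroblast markers ran the other way in cTEC, with 9 genes that summed to 366 to 379 CPM in heterozygous and 137 to 145 CPM in homozygous cTEC, 5 of them higher. The part of these cells in the results below was not tested unless a value is given. In such bulk samples fewer cells of a type and less RNA per cell cannot be told apart.

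Each comparison was tested with edgeR's quasi-likelihood test, with Benjamini-Hochberg adjustment over all genes tested and a threshold of adjusted p = 0.05. CPM are counts scaled to a library total of 1000000, and each log2 fold change (± standard error, SE) is a fitted value after TMM normalisation. Because genes differ in length, CPM are compared between groups and not between genes. Between heterozygous and homozygous mTEC, 4 of the 36 members were higher and 18 lower, and their median log2 fold change was -0.23 against 0.01 over all genes tested. Over all 19222 genes, 28.9% were higher, 30.8% lower and 59.7% called in either direction in that comparison, so the members' share of 61.1% lay near the background; their groups did not overlap for 29 members, against 80.1% of all genes. Between heterozygous and homozygous cTEC, 6 members were higher and 17 lower, 63.9% in all, with a median of -0.19 against 0.00, and their groups did not overlap for 28, against 54.7% of all genes. The background there was 20.9% higher, 21.9% lower and 42.8% in either direction. With no normalisation factors, which moves the median of all genes in cTEC by 0.11, the members' split became 13 higher and 12 lower, and that of all genes 5930 and 2859 in place of 4024 and 4201. In mTEC the DESeq2 size factors moved the median of all genes by -0.13, with 3911 genes higher and 7082 lower in place of 5550 and 5922, and members split 2 and 22. Without heterozygous cTEC library 1 or homozygous cTEC library 2, 3 members were higher in cTEC in place of 6.

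The effect of dose differed between mTEC and cTEC, as tested by the interaction, for 17 members. The interaction is the log2 fold change in mTEC minus that in cTEC: 7 had the higher and 10 the lower log2 fold change in mTEC. The background was 25.2% higher, 17.2% lower and 42.5% in either direction, against 47.2% of the members. With no normalisation factors the members split 5 and 12 and all genes 3106 and 4119, in place of 4848 and 3314. The DESeq2 size factors gave 6 and 11 members and 3403 and 3925 genes, with the all-gene median moved by -0.13. Between subsets, 20 members were higher and 10 lower in heterozygous mTEC than in heterozygous cTEC, where 40.4% of all genes were higher, 31.6% lower and 72.0% in either direction. In homozygous mice, 20 members were higher and 11 lower in mTEC than cTEC, where 43.2% of all genes were higher, 39.4% lower and 82.6% in either direction. These counts include Bik, Bcl2a1a and Hrk, which reached the filter on low counts through their mTEC libraries alone and so had to be higher in mTEC. Of the other 33 members, 17 were higher and 10 lower in heterozygous mice and 17 higher and 11 lower in homozygous mice, with median log2 fold changes of 0.29 and 0.27, against 0.09 and 0.04 over all genes. Genes that reached the filter through a single subset were not left out of the all-gene values. The homozygous split became 24 higher and 7 lower with no normalisation factors, and that of all genes 9576 and 5736 in place of 8303 and 7577. The comparisons share libraries, so their counts are not independent. Every member passed in at least 1 of these 5 comparisons, and none of the 33 tested in the deletion experiment passed there.

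**Figure D1:**
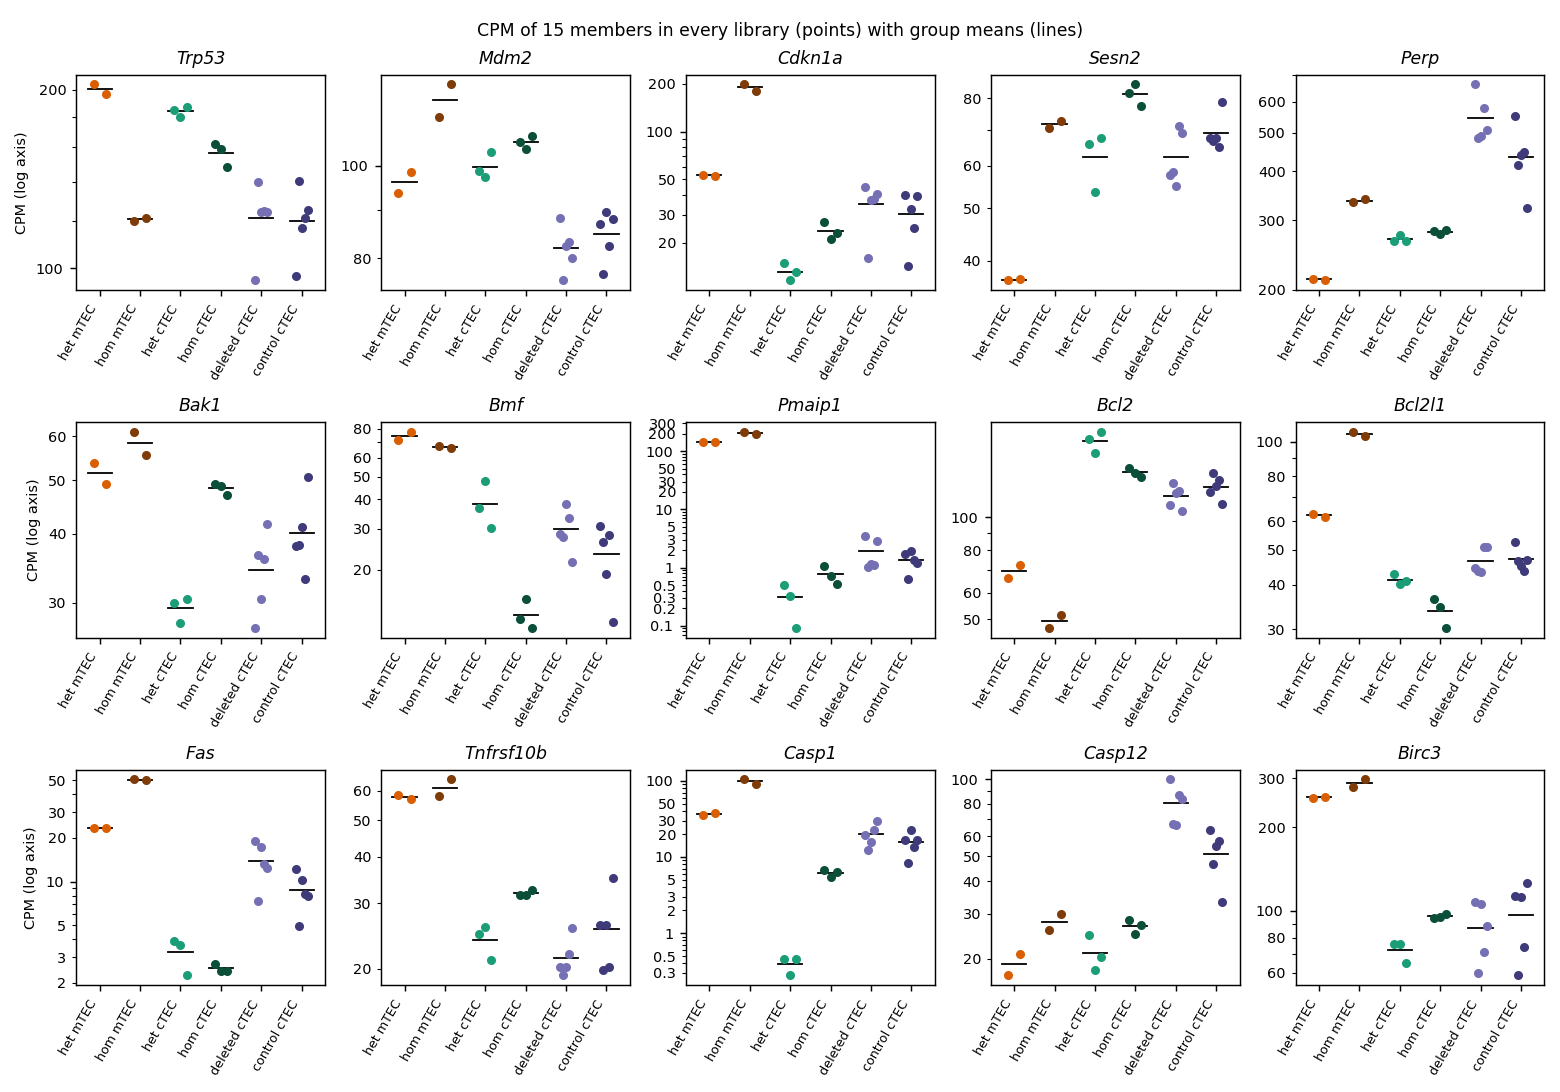
CPM of 15 members on a log axis, with 1 point per library and a line at each group mean; het and hom are the heterozygous and homozygous transgenic genotypes, and deleted and control the 2 groups of the deletion experiment. Cdkn1a reached 198 and 180.4 CPM in homozygous mTEC and 14.8, 11.6 and 13.03 CPM in heterozygous cTEC, and Casp1 was below 1 CPM only in heterozygous cTEC.

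Trp53 and Mdm2, the regulator and its inhibitor, moved apart in mTEC. Trp53 had 204 and 197 CPM in mTEC labelled heterozygous, against 120.4 and 122 CPM in mTEC labelled homozygous, a rise of 1.68-fold (log2 fold change 0.75 ± 0.06, adjusted p = 1.24e-06). Its cTEC levels were 185, 179.7 and 187 CPM in heterozygous cTEC, against 162, 159 and 148 CPM in homozygous cTEC. The groups did not overlap in either subset, but the cTEC difference (log2 fold change) of 0.10 ± 0.05 did not pass (adjusted p = 0.149). With no normalisation factors it passed at 0.23. The dose effect on Trp53 differed between subsets (interaction, log2 difference 0.65 ± 0.08, adjusted p = 4.34e-05). In homozygous mice Trp53 was lower in mTEC than cTEC (log2 fold change -0.61 ± 0.06, adjusted p = 4.46e-07), whereas in heterozygous mice the difference was 0.04 ± 0.06 and did not pass.

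Mdm2, the ubiquitin ligase that marks p53 for degradation, had 93.7 and 98.4 CPM in mTEC labelled heterozygous, against 113 and 122 CPM in mTEC labelled homozygous. Cortical libraries had 98.7, 97.2 and 103 CPM in heterozygous cTEC, against 106, 104 and 107 CPM in homozygous cTEC. Heterozygous libraries were below homozygous ones in both subsets, with log2 fold changes of -0.26 ± 0.06 in mTEC (adjusted p = 0.00298) and -0.22 ± 0.05 in cTEC (adjusted p = 0.00353), a cTEC call that ended with no normalisation factors (adjusted p = 0.200). These effects did not differ between subsets past the threshold (interaction log2 difference -0.04 ± 0.08, adjusted p = 0.717). Between subsets Mdm2 was lower in heterozygous mTEC (log2 fold change -0.14 ± 0.06, adjusted p = 0.0422), a call that ended without heterozygous cTEC library 1 or 3, heterozygous mTEC library 1 or 2, or homozygous cTEC library 1, 2 or 3 (adjusted p = 0.0536 to 0.732), with the DESeq2 size factors (adjusted p = 0.198), with no filter on low counts (adjusted p = 0.0562) and with no normalisation factors (adjusted p = 0.410). In homozygous mice the difference was a log2 fold change of -0.10 ± 0.06 and did not pass, and it turned to 0.15 with no normalisation factors (adjusted p = 0.0308). It passed as lower without homozygous mTEC library 2 (adjusted p = 0.0285).

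Of the 7 p53 targets for arrest and stress, 5 were lower and 1 higher in heterozygous than homozygous mTEC, and 5 were lower in heterozygous than homozygous cTEC. These calls cover 85.7% and 71.4% of the 7, against 59.7% and 42.8% of all genes tested. Cdkn1a, the cyclin-dependent kinase inhibitor through which p53 arrests the cell cycle, had 53.3 and 52.7 CPM in mTEC labelled heterozygous, against 198 and 180.4 CPM in mTEC labelled homozygous. In cTEC it had 14.8, 11.6 and 13.03 CPM in heterozygous cTEC, against 26.9, 20.9 and 22.9 CPM in homozygous cTEC. All heterozygous libraries were below all homozygous ones of their subset. The fall was 3.51-fold in mTEC (log2 fold change -1.81 ± 0.11, adjusted p = 7.03e-08) and 1.96-fold in cTEC (-0.97 ± 0.11, adjusted p = 6.82e-06), and it was larger in mTEC (interaction -0.84 ± 0.15, adjusted p = 0.00068). Cdkn1a was also higher in mTEC than cTEC, 3.79-fold in heterozygous (log2 fold change 1.92 ± 0.11, adjusted p = 3e-09) and 6.78-fold in homozygous mice (2.76 ± 0.10, adjusted p = 2e-11). In mTEC these differences ran with the sum of macrophage and dendritic cell markers given above; 11 of those 12 markers were lower in heterozygous mTEC. In cTEC 2 of the 12 were lower and 1 higher. Their part in the Cdkn1a values was not tested.

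Sesn2, a stress-induced inhibitor of mTORC1 signalling, had 36.8 and 37.00 CPM in mTEC labelled heterozygous, against 70.5 and 72.8 CPM in mTEC labelled homozygous. It had 65.8, 53.5 and 67.5 CPM in heterozygous cTEC, against 82.00, 84.9 and 77.5 CPM in homozygous cTEC. Heterozygous libraries were lower in both subsets, with log2 fold changes of -0.93 ± 0.10 in mTEC and -0.52 ± 0.08 in cTEC, and the interaction of -0.41 ± 0.13 passed (adjusted p = 0.0211) but not without heterozygous mTEC library 2, homozygous cTEC library 3, or homozygous mTEC library 1 or 2 (adjusted p = 0.0515 to 0.0869). Sesn1, its paralog, moved the other way in mTEC, with 41.7 and 41.2 CPM in mTEC labelled heterozygous, against 33.5 and 35.4 CPM in mTEC labelled homozygous (log2 fold change 0.29 ± 0.08, adjusted p = 0.00546). With the DESeq2 size factors this rise did not pass (adjusted p = 0.0825). In cTEC Sesn1 had 125, 114 and 128 CPM in heterozygous cTEC, against 104, 102 and 106 CPM in homozygous cTEC, a difference (log2 fold change) of 0.10 that did not pass. It did without heterozygous cTEC library 2 (adjusted p = 0.0307) and with no normalisation factors (0.23, adjusted p = 0.00386). Both sestrin genes were lower in mTEC than cTEC, Sesn1 with log2 fold changes of -1.65 ± 0.07 in heterozygous and -1.84 ± 0.07 in homozygous mice (adjusted p = 1.36e-10 and 2.93e-11), and Sesn2 with -0.84 and -0.43, the last ending with no normalisation factors (adjusted p = 0.0633).

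Perp, a p53 target and desmosomal membrane protein of epithelia, had 213 and 211 CPM in mTEC labelled heterozygous, against 333 and 339.97 CPM in mTEC labelled homozygous. Its cTEC levels were 266, 275 and 266 CPM in heterozygous cTEC, against 282, 277 and 284 CPM in homozygous cTEC. The mTEC groups were far apart (log2 fold change -0.64 ± 0.06, adjusted p = 1.71e-06) and the cTEC groups close but not overlapping (-0.20, adjusted p = 0.0038, and with no normalisation factors adjusted p = 0.293), and the effects differed (-0.44 ± 0.07, adjusted p = 0.00036). Phlda3, a repressor of AKT signalling, had 60.1 and 62.9 CPM in mTEC labelled heterozygous, against 101 and 93.8 CPM in mTEC labelled homozygous. It had 92.9, 78.5 and 87.5 CPM in heterozygous cTEC, against 78.1, 73.1 and 71.3 CPM in homozygous cTEC. It fell in mTEC (log2 fold change -0.64) with a difference of 0.09 in cTEC that did not pass except with no normalisation factors (0.22, adjusted p = 0.0166), and the interaction passed (-0.73 ± 0.11, adjusted p = 0.000197). Phlda3 and Perp were lower in heterozygous mTEC than cTEC (log2 fold change -0.58 and -0.43). In homozygous mice their differences (log2 fold change) of 0.15 and 0.02 did not pass. Both passed as higher there with the DESeq2 size factors (0.33 for Phlda3, adjusted p = 0.00112, and 0.20 for Perp, adjusted p = 0.00284), and Phlda3 without heterozygous cTEC library 2 or 3 or heterozygous mTEC library 1 or 2 (adjusted p = 0.0114 to 0.0428).

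Ccng1, which encodes cyclin G1, had 165 and 176 CPM in mTEC labelled heterozygous, against 219 and 196 CPM in mTEC labelled homozygous. It had 213, 184 and 220.3 CPM in heterozygous cTEC, against 251, 252 and 263 CPM in homozygous cTEC. Heterozygous libraries were lower in cTEC (log2 fold change -0.44, adjusted p = 0.000246) and in mTEC (-0.26), where the call ended without heterozygous mTEC library 1 or homozygous mTEC library 1 (adjusted p = 0.13 to 0.201). Zmat3, an RNA-binding zinc finger protein, had 40.8, 50.4 and 47.8 CPM in heterozygous cTEC, against 60.96, 60.9 and 62.8 CPM in homozygous cTEC, a fall (log2 fold change) of -0.55 ± 0.07 (adjusted p = 1.86e-05). In mTEC its groups overlapped, with 45.7 and 47.6 CPM in mTEC labelled heterozygous, against 47.7 and 47.4 CPM in mTEC labelled homozygous, and the effect of dose differed between subsets (log2 difference 0.54 ± 0.11, adjusted p = 0.00114). Ccng1 was lower in mTEC than cTEC at both doses (log2 fold change -0.36 in heterozygous and -0.54 in homozygous mice; the heterozygous call ended without heterozygous mTEC library 1 (adjusted p = 0.0659)), and Zmat3 was lower in homozygous mTEC (-0.62).

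**Figure D2:**
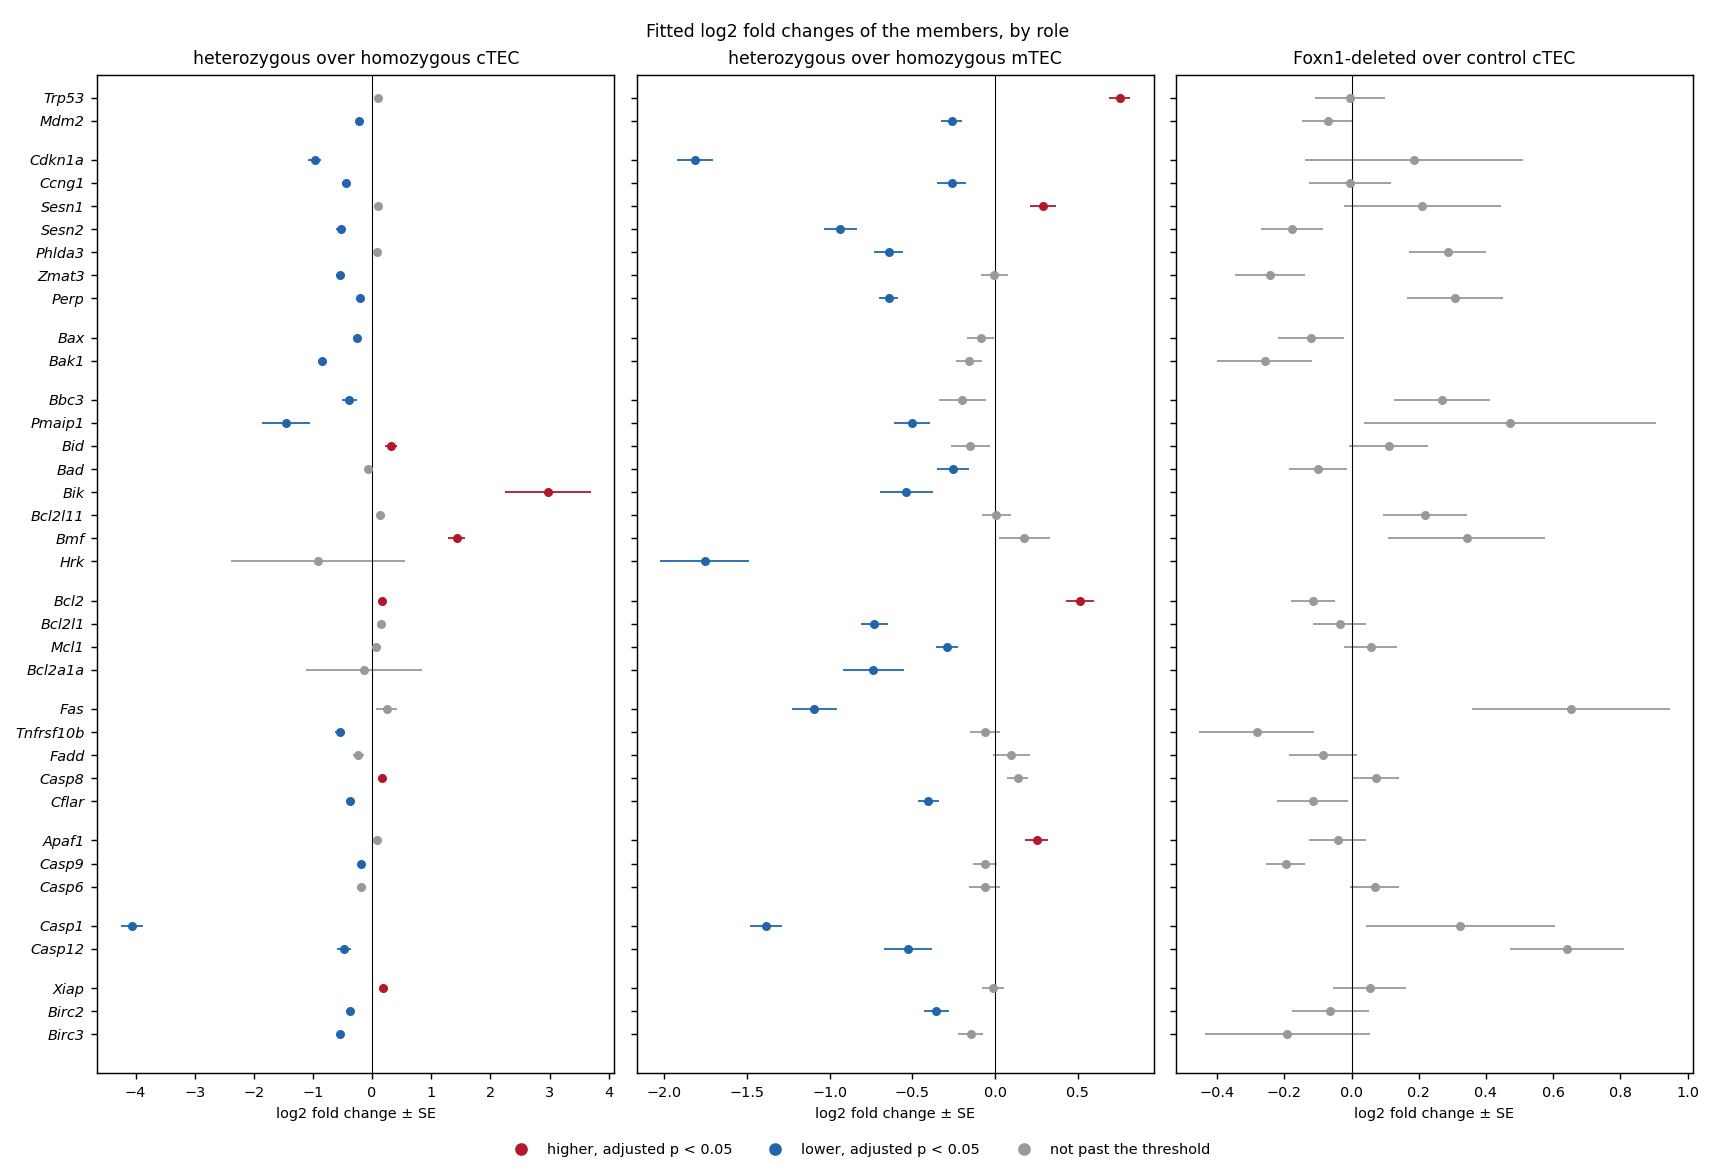
Fitted log2 fold changes with their SE for each member, ordered by role, in the 3 comparisons of genotype; the horizontal scales differ between the panels, and members not tested in a panel have no point. Casp1 lies farthest to the left in cTEC at -4.06 and Cdkn1a in mTEC at -1.81, and all 33 points of the deletion panel are grey.

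Bak1 and Bax, which encode the effectors that form pores in the mitochondrial outer membrane, were both lower in heterozygous than homozygous cTEC. Bak1 had 30.02, 27.6 and 30.5 CPM in heterozygous cTEC, against 49.3, 48.8 and 47.03 CPM in homozygous cTEC, a 1.81-fold fall (log2 fold change -0.85 ± 0.07, adjusted p = 3.72e-07). In mTEC it had 53.8 and 49.2 CPM in mTEC labelled heterozygous, against 61.1 and 55.6 CPM in mTEC labelled homozygous. The groups did not overlap but the difference did not pass (log2 fold change -0.16, adjusted p = 0.109), although it did with the DESeq2 size factors (-0.29, adjusted p = 0.00731). The effect of dose on Bak1 differed between subsets (log2 difference 0.70 ± 0.11, adjusted p = 0.000171). Bax had 55.9 and 56.4 CPM in mTEC labelled heterozygous, against 64.4 and 56.8 CPM in mTEC labelled homozygous. It had 33.6, 32.2 and 32.6 CPM in heterozygous cTEC, against 35.9, 37.8 and 33.9 CPM in homozygous cTEC. Its cTEC fall (log2 fold change) of -0.26 ± 0.07 passed (adjusted p = 0.00729), but not with no normalisation factors (adjusted p = 0.135), and its mTEC difference of -0.09 did not, except with the DESeq2 size factors (-0.22, adjusted p = 0.0307). Bax was higher in mTEC than cTEC in heterozygous (log2 fold change 0.69) and homozygous mice (0.51), and Bak1 in heterozygous mice (0.72), while its homozygous difference was 0.03 and did not pass except under the other scalings (0.21 with the DESeq2 size factors, adjusted p = 0.0152). The annotated locus of Bak1 overlaps that of Ggnbp1, and with no stated strand setting their reads cannot be told apart.

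Of the 8 BH3-only genes, 3 were higher (Bmf, Bid and Bik) and 2 lower (Pmaip1 and Bbc3) in heterozygous than homozygous cTEC. There were 0 higher and 4 lower (Pmaip1, Bik, Hrk and Bad) in mTEC labelled heterozygous than in mTEC labelled homozygous. These calls cover 62.5% of the 8 in cTEC, against 42.8% of all genes tested. In mTEC the share called was below the 59.7% of all genes. Bmf, whose product is released from the cytoskeleton when cells lose attachment, had 36.6, 47.7 and 30.2 CPM in heterozygous cTEC, against 12.3, 14.96 and 11.3 CPM in homozygous cTEC. Every heterozygous library was above every homozygous one, a 2.70-fold rise (log2 fold change 1.43 ± 0.14, adjusted p = 3.38e-06). In mTEC it had 71.3 and 77.5 CPM in mTEC labelled heterozygous, against 67.7 and 66.2 CPM in mTEC labelled homozygous and did not pass (log2 fold change 0.17), and the interaction passed (-1.26 ± 0.21, adjusted p = 0.000393). Bmf was higher in mTEC than cTEC, with log2 fold changes of 0.88 ± 0.14 in heterozygous and 2.13 ± 0.15 in homozygous mice. Bid, which caspase 8 cleaves to link death receptors to mitochondria, had 14.2, 11.96 and 15.01 CPM in heterozygous cTEC, against 10.1, 9.84 and 10.03 CPM in homozygous cTEC, a rise (log2 fold change) of 0.32 whose call ended without heterozygous cTEC library 1 or 3 or homozygous cTEC library 2 (adjusted p = 0.0525 to 0.0664). Its mTEC values of 16.2 and 15.8 CPM in mTEC labelled heterozygous, against 17.6 and 18.4 CPM in mTEC labelled homozygous gave a log2 fold change of -0.15 and did not pass. The interaction (log2 difference) of -0.47 passed, but not without heterozygous cTEC library 1, heterozygous mTEC library 1 or 2, or homozygous mTEC library 2 (adjusted p = 0.0524 to 0.0757). Bid was higher in mTEC than cTEC in homozygous mice (log2 fold change 0.60) but did not pass in heterozygous mice (0.13).

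Pmaip1, which encodes the p53-induced BH3-only protein NOXA, had 142 and 145 CPM in mTEC labelled heterozygous, against 215 and 197 CPM in mTEC labelled homozygous, a fall (log2 fold change) of -0.50 ± 0.11 (adjusted p = 0.00146). It was near the limit of counting in cTEC, at 0.503, 0.324 and 0.0918 CPM in heterozygous cTEC, against 1.08, 0.725 and 0.523 CPM in homozygous cTEC. The cTEC fall (log2 fold change) of -1.46 ± 0.41 passed (adjusted p = 0.0106) but rests on 20 counts against 50, a ratio of 0.395 with an exact 95% interval of 0.223 to 0.676, and it ended without homozygous cTEC library 1 (adjusted p = 0.0603). Such intervals cover counting error only. Its interaction (log2 difference) of 0.96 did not pass, although it did without heterozygous cTEC library 1 or homozygous cTEC library 3 (adjusted p = 0.0239 to 0.0483). It was 223-fold higher in homozygous mTEC than cTEC (log2 fold change 7.80 ± 0.16, adjusted p = 1.1e-13) and 432-fold higher in heterozygous mTEC than cTEC (8.76 ± 0.18, adjusted p = 2.35e-13). The last rests on 6077 counts against 20, a ratio of 467 (302 to 766). Bbc3, which encodes PUMA, the other BH3-only protein that p53 is best known to induce, had 22.8 and 23.1 CPM in mTEC labelled heterozygous, against 28.01 and 25.5 CPM in mTEC labelled homozygous. It had 11.9, 10.1 and 8.86 CPM in heterozygous cTEC, against 12.3, 13.96 and 10.4 CPM in homozygous cTEC. Its cTEC groups overlapped, and the call (log2 fold change) of -0.38 ± 0.13 (adjusted p = 0.0288) ended without heterozygous cTEC library 2 or 3, homozygous cTEC library 1 or 2, or homozygous mTEC library 1 or 2 (adjusted p = 0.0508 to 0.141), with no filter on low counts (adjusted p = 0.0641) and with no normalisation factors (adjusted p = 0.123). Bbc3 was higher in mTEC than cTEC in heterozygous (log2 fold change 1.07) and homozygous mice (0.88), with no overlap.

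Bik and Hrk, 2 further BH3-only genes, were nearly confined to mTEC among the transgenic libraries and entered the tests through their mTEC levels. Bik had 12.9 and 12.2 CPM in mTEC labelled heterozygous, against 20.7 and 16.3 CPM in mTEC labelled homozygous, a fall (log2 fold change) of -0.54 whose call ended without heterozygous mTEC library 2 or homozygous mTEC library 1 (adjusted p = 0.0854 to 0.165). Cortical libraries had 0.183, 0.324 and 0.413 CPM in heterozygous cTEC, against 0.0467, 0 and 0.0476 CPM in homozygous cTEC, in all 20 counts in heterozygous and 2 in homozygous libraries, a ratio of 9.88 with an exact 95% interval of 2.40 to 87.2. The fitted rise passed (adjusted p = 0.00484), as did the interaction (adjusted p = 0.00188). Fitted folds of so few counts depend on the prior count. Between subsets, Bik had 533 counts against 20 in heterozygous mTEC and cTEC, a ratio of 40.99 (26.3 to 67.7), and 800 counts against 2 in homozygous mTEC and cTEC, a ratio of 597 (165 to 4938). Hrk had 1.60 and 2.36 CPM in mTEC labelled heterozygous, against 7.13 and 6.48 CPM in mTEC labelled homozygous, a fall (log2 fold change) of -1.75 ± 0.27 (adjusted p = 0.000121) with every heterozygous library below every homozygous one. In cTEC it had 0, 0 and 0.0459 CPM in heterozygous cTEC, against 0, 0.0907 and 0 CPM in homozygous cTEC, too few counts for a fold. Hrk had 84 counts against 1 in heterozygous mTEC and cTEC, a ratio of 129 (22.6 to 5164), and 294 counts against 2 in homozygous mTEC and cTEC, a ratio of 219 (60.2 to 1820.2).

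Bad, a BH3-only protein held in check by growth factor signalling, had 22.9 and 21.4 CPM in mTEC labelled heterozygous, against 28.3 and 25.5 CPM in mTEC labelled homozygous. It had 28.1, 26.6 and 28.6 CPM in heterozygous cTEC, against 27.3, 27.6 and 24.5 CPM in homozygous cTEC. The mTEC fall (log2 fold change) of -0.25 passed (adjusted p = 0.0344) but not without heterozygous mTEC library 1 or 2 or homozygous mTEC library 1 (adjusted p = 0.0586 to 0.212), and the cTEC groups overlapped. Bad was lower in mTEC than cTEC, with log2 fold changes of -0.41 in heterozygous mice, where the call ended without heterozygous mTEC library 2 (adjusted p = 0.0568), and -0.22 in homozygous mice, where it ended without heterozygous cTEC library 3, heterozygous mTEC library 1 or 2, homozygous cTEC library 1 or 2, or homozygous mTEC library 2 (adjusted p = 0.0753 to 0.222) and with the DESeq2 size factors (-0.04, adjusted p = 0.685), and turned to 0.02 with no normalisation factors. The annotated locus of Bad overlaps that of Gpr137. Bcl2l11, which encodes BIM, had 36.4 and 34.7 CPM in mTEC labelled heterozygous, against 35.00 and 36.8 CPM in mTEC labelled homozygous. It had 22.1, 22.2 and 24.8 CPM in heterozygous cTEC, against 19.2, 20.2 and 17.7 CPM in homozygous cTEC. Its annotated locus overlaps that of Acoxl. It passed in neither dose comparison except in cTEC with no normalisation factors (0.28, adjusted p = 0.00982), and was higher in mTEC than cTEC with log2 fold changes of 0.54 in heterozygous and 0.67 in homozygous mice.

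The pro-survival genes of the BCL2 family split in mTEC, where 1 of 4 was higher and 3 lower in heterozygous than homozygous libraries. All 4 were thus called there, against 59.7% of all genes tested. Bcl2 had 66.4 and 72.2 CPM in mTEC labelled heterozygous, against 47.2 and 51.5 CPM in mTEC labelled homozygous, a rise (log2 fold change) of 0.51 ± 0.08 (adjusted p = 0.000188). It had 170.2, 154 and 178 CPM in heterozygous cTEC, against 139.6, 135 and 132 CPM in homozygous cTEC, and the smaller rise (log2 fold change) of 0.17 ± 0.06 (adjusted p = 0.0442) ended without heterozygous cTEC library 1 or 3 or homozygous cTEC library 1, 2 or 3 (adjusted p = 0.0657 to 0.143) and with no filter on low counts (adjusted p = 0.0941). Bcl2 was the only member called higher in heterozygous libraries of both subsets. The difference between subsets (log2 difference) of 0.34 ± 0.10 passed, but not without heterozygous mTEC library 2 or homozygous mTEC library 1 (adjusted p = 0.0903 to 0.095) or with the DESeq2 size factors (0.21, adjusted p = 0.124) or no normalisation factors (0.18, adjusted p = 0.186). Bcl2 was lower in mTEC than cTEC, with log2 fold changes of -1.36 ± 0.08 in heterozygous (adjusted p = 2.38e-09) and -1.70 ± 0.08 in homozygous mice (adjusted p = 1.82e-10). Thymocytes express Bcl2 as well. Of their 14 markers, 12 were lower in heterozygous than homozygous mTEC and all 14 in heterozygous than homozygous cTEC, and their part in the Bcl2 values was not tested.

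Bcl2l1, which encodes BCL-XL, had 62.9 and 61.7 CPM in mTEC labelled heterozygous, against 106 and 104 CPM in mTEC labelled homozygous. Its cTEC levels were 42.7, 40.2 and 40.9 CPM in heterozygous cTEC, against 36.4, 34.5 and 30.3 CPM in homozygous cTEC. Heterozygous libraries were below homozygous ones in mTEC (log2 fold change -0.73 ± 0.08, adjusted p = 9.77e-06) and above them in cTEC, where the difference of 0.16 did not pass (adjusted p = 0.0923) but did with no normalisation factors (0.29) and without homozygous cTEC library 1 (adjusted p = 0.0457). The interaction passed (log2 difference -0.89 ± 0.11, adjusted p = 2.88e-05). Mcl1, a short-lived pro-survival protein, had 265 and 267 CPM in mTEC labelled heterozygous, against 336 and 325 CPM in mTEC labelled homozygous. It had 179, 167 and 163 CPM in heterozygous cTEC, against 155, 146 and 144 CPM in homozygous cTEC. It fell in mTEC (log2 fold change -0.29, adjusted p = 0.0028) and did not pass in cTEC (0.06) except with no normalisation factors (0.19, adjusted p = 0.0101), with an interaction of -0.35. Both were higher in mTEC than cTEC, Bcl2l1 with log2 fold changes of 0.51 in heterozygous and 1.39 in homozygous mice, and Mcl1 with 0.56 and 0.91. The annotated locus of Bcl2l1 overlaps that of Cox4i2.

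Bcl2a1a, an NF-kB-induced pro-survival gene with near-identical copies Bcl2a1b and Bcl2a1d between which reads can be split, is uncertain for that reason. It had 10.7 and 10.6 CPM in mTEC labelled heterozygous, against 16.9 and 19.2 CPM in mTEC labelled homozygous, a fall (log2 fold change) of -0.74 whose call ended without homozygous mTEC library 2 (adjusted p = 0.0524). Cortical libraries had 0.0914, 0 and 0.0918 CPM in heterozygous cTEC, against 0.140, 0.0453 and 0 CPM in homozygous cTEC, with 4 counts against 4 in heterozygous and homozygous libraries. Between subsets it had 452 counts against 4 in heterozygous mTEC and cTEC, a ratio of 174 (67.4 to 641), and 779 counts against 4 in homozygous mTEC and cTEC, a ratio of 291 (113 to 1069.5). Macrophages and dendritic cells express these genes, and all 12 of their markers were higher in homozygous mTEC than cTEC and 11 in heterozygous mTEC. Their part in the Bcl2a1a values was not tested.

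Of the 5 death receptor genes, 2 were lower in heterozygous mTEC, and in cTEC 2 were lower and 1 higher. The share called was below the 59.7% of all genes in mTEC and above the 42.8% of all genes in cTEC. Fas had 23.3 and 23.4 CPM in mTEC labelled heterozygous, against 50.7 and 50.3 CPM in mTEC labelled homozygous, a 2.13-fold fall (log2 fold change -1.09 ± 0.14, adjusted p = 2.44e-05). In cTEC it had 3.88, 3.66 and 2.25 CPM in heterozygous cTEC, against 2.71, 2.40 and 2.43 CPM in homozygous cTEC. The groups overlapped, and the difference (log2 fold change) of 0.24 did not pass, although it did without heterozygous cTEC library 3 (0.47, adjusted p = 0.0133). The effect of dose differed between subsets (log2 difference -1.33 ± 0.23, adjusted p = 0.000419). Fas was 6.72-fold higher in mTEC than cTEC in heterozygous (log2 fold change 2.75 ± 0.15, adjusted p = 1.92e-09) and 16.9-fold higher in homozygous mice (4.08 ± 0.15, adjusted p = 2.01e-11). Tnfrsf10b, the mouse receptor for the ligand TRAIL and a p53 target, had 24.9, 25.9 and 21.1 CPM in heterozygous cTEC, against 31.5, 31.5 and 32.6 CPM in homozygous cTEC, a fall (log2 fold change) of -0.55 ± 0.08 (adjusted p = 9.09e-05). In mTEC its groups overlapped, with 58.5 and 57.01 CPM in mTEC labelled heterozygous, against 58.1 and 64.4 CPM in mTEC labelled homozygous, and the interaction passed (log2 difference 0.49 ± 0.12, adjusted p = 0.00561). It was higher in mTEC than cTEC (log2 fold change 1.18 in heterozygous and 0.70 in homozygous mice).

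Cflar, which encodes the caspase 8 inhibitor FLIP, had 184 and 195 CPM in mTEC labelled heterozygous, against 255 and 255 CPM in mTEC labelled homozygous. It had 147, 140.4 and 150.2 CPM in heterozygous cTEC, against 173, 166 and 175 CPM in homozygous cTEC. It was lower in heterozygous libraries of both subsets, with log2 fold changes of -0.40 ± 0.06 in mTEC (adjusted p = 0.000137) and -0.37 ± 0.05 in cTEC (adjusted p = 6.63e-05), with an interaction of -0.04 that did not pass. Casp8 had 73.5 and 73.6 CPM in mTEC labelled heterozygous, against 65.5 and 70.6 CPM in mTEC labelled homozygous. It had 48.02, 50.3 and 47.4 CPM in heterozygous cTEC, against 38.9, 39.4 and 40.2 CPM in homozygous cTEC. The cTEC rise (log2 fold change) of 0.16 passed (adjusted p = 0.0269) but not without heterozygous cTEC library 1 or 2 or homozygous cTEC library 1, 2 or 3 (adjusted p = 0.0512 to 0.0856), and the mTEC difference of 0.14 did not. It did without homozygous mTEC library 2 (adjusted p = 0.0272). Fadd, the adaptor between receptor and caspase 8, had 15.96 and 17.6 CPM in mTEC labelled heterozygous, against 16.9 and 14.9 CPM in mTEC labelled homozygous. It had 14.3, 17.4 and 14.96 CPM in heterozygous cTEC, against 16.7, 16.7 and 16.6 CPM in homozygous cTEC, with overlap in both subsets and no call. Its cTEC difference (log2 fold change) of -0.24 passed without heterozygous cTEC library 2 or homozygous mTEC library 1 or 2 (adjusted p = 0.0136 to 0.046), and its interaction of 0.34 without heterozygous cTEC library 2 or homozygous mTEC library 1 (adjusted p = 0.0239 to 0.0499). Cflar and Casp8 were higher in mTEC than cTEC, Cflar with log2 fold changes of 0.29 in heterozygous and 0.33 in homozygous mice and Casp8 with 0.51 and 0.54. Fadd was lower in homozygous mTEC (log2 fold change -0.31), a call that ended without heterozygous cTEC library 3, heterozygous mTEC library 1 or 2, or homozygous mTEC library 2 (adjusted p = 0.0741 to 0.0981) and with the DESeq2 size factors (-0.13) or no normalisation factors (-0.07), and its heterozygous difference was 0.02.

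Changes in the apoptosome and executioner genes were small. Apaf1, the scaffold of the apoptosome, had 64.8 and 71.7 CPM in mTEC labelled heterozygous, against 55.5 and 61.1 CPM in mTEC labelled homozygous, a rise (log2 fold change) of 0.25 whose call ended without heterozygous mTEC library 2 or homozygous mTEC library 1 (adjusted p = 0.0575 to 0.0897) and with the DESeq2 size factors (adjusted p = 0.159). It had 67.5, 70.03 and 67.7 CPM in heterozygous cTEC, against 57.7, 58.02 and 60.5 CPM in homozygous cTEC and did not pass (log2 fold change 0.09), but did with no normalisation factors (0.22). Casp9, the initiator caspase of the apoptosome, had 39.2, 38.4 and 40.7 CPM in heterozygous cTEC, against 40.1, 41.3 and 40.9 CPM in homozygous cTEC. The groups overlapped, and the call (log2 fold change) of -0.18 (adjusted p = 0.0261) ended without heterozygous cTEC library 1, 2 or 3, heterozygous mTEC library 1 or 2, or homozygous cTEC library 2 or 3 (adjusted p = 0.0525 to 0.0795) and with no normalisation factors (adjusted p = 0.545). In mTEC Casp9 had 35.2 and 33.7 CPM in mTEC labelled heterozygous, against 38.2 and 34.95 CPM in mTEC labelled homozygous and did not pass (log2 fold change -0.06) except with the DESeq2 size factors (-0.19, adjusted p = 0.0420). Casp6, an executioner caspase, had 51.99 and 51.3 CPM in mTEC labelled heterozygous, against 59.6 and 50.1 CPM in mTEC labelled homozygous. It had 35.8, 39.6 and 35.9 CPM in heterozygous cTEC, against 37.7, 41.2 and 36.3 CPM in homozygous cTEC, and passed in neither dose comparison. Its cTEC difference (log2 fold change) of -0.18 passed without heterozygous cTEC library 2 or homozygous mTEC library 1 or 2 (adjusted p = 0.0429 to 0.0433). Casp9 was lower in mTEC than cTEC, with log2 fold changes of -0.28 in heterozygous mice, where the call ended without heterozygous mTEC library 2 (adjusted p = 0.14), and -0.40 in homozygous mice. Casp6 was higher with log2 fold changes of 0.39 in heterozygous and 0.27 in homozygous mice, where the call ended without homozygous mTEC library 1 (adjusted p = 0.18). Apaf1 was lower in homozygous mTEC (log2 fold change -0.25), not past the threshold with the DESeq2 size factors (-0.07) or no normalisation factors (-0.01). Annotated loci that overlap are those of Casp9 with Cela2a and of Apaf1 with Ikbip.

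Casp1, the caspase that matures interleukin-1 beta within inflammasomes, showed the largest fall among the members in cTEC. It had 0.457, 0.278 and 0.459 CPM in heterozygous cTEC, against 6.68, 5.39 and 6.37 CPM in homozygous cTEC, so that every heterozygous library was below every homozygous one. The fall was 16.7-fold (log2 fold change -4.06 ± 0.19, adjusted p = 2.72e-09). In mTEC Casp1 had 36.03 and 38.2 CPM in mTEC labelled heterozygous, against 104 and 92.2 CPM in mTEC labelled homozygous, a 2.61-fold fall (log2 fold change -1.38 ± 0.10, adjusted p = 2.21e-07), and the effect was larger in cTEC (interaction 2.68 ± 0.23, adjusted p = 1.82e-06). It was 86.5-fold higher in mTEC than cTEC in heterozygous (log2 fold change 6.43 ± 0.16, adjusted p = 7.68e-13) and 13.5-fold higher in homozygous mice (3.76 ± 0.10, adjusted p = 8.94e-13). Macrophages and dendritic cells express Casp1. The sum of their markers was lower in heterozygous than homozygous mTEC, and in cTEC it was 7.43 to 8.71 CPM in heterozygous and 4.28 to 7.71 CPM in homozygous libraries, with 2 of the 12 markers lower and 1 higher and a median log2 fold change of -0.77 over the list. Thymocyte markers summed there to 11.1 to 19.1 CPM in heterozygous and 65.7 to 106 CPM in homozygous cTEC. The part of these cells in the Casp1 result was not tested.

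Casp12, an endoplasmic reticulum caspase of rodents, had 17.2 and 20.9 CPM in mTEC labelled heterozygous, against 25.9 and 29.9 CPM in mTEC labelled homozygous. It had 24.7, 18.03 and 20.3 CPM in heterozygous cTEC, against 28.3, 25.1 and 27.1 CPM in homozygous cTEC. Heterozygous libraries were lower with log2 fold changes of -0.53 ± 0.14 in mTEC and -0.48 ± 0.12 in cTEC (adjusted p = 0.00706 and 0.00457), and the mTEC call ended without heterozygous mTEC library 1 or homozygous mTEC library 2 (adjusted p = 0.0742 to 0.0866). The effects did not differ past the threshold (interaction log2 difference -0.04), nor did the subsets, with -0.23 in heterozygous and -0.18 in homozygous mice, of which the first passed without heterozygous cTEC library 2 (adjusted p = 0.025).

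Among the IAP genes, Birc3, which encodes cIAP2 and is induced by NF-kB, had 75.9, 76.1 and 65.3 CPM in heterozygous cTEC, against 94.5, 95.1 and 97.9 CPM in homozygous cTEC, a fall (log2 fold change) of -0.54 ± 0.06 (adjusted p = 1.64e-05). In mTEC it had 255 and 256 CPM in mTEC labelled heterozygous, against 279 and 297 CPM in mTEC labelled homozygous. The groups did not overlap but the difference (log2 fold change) of -0.15 did not pass, although it did with the DESeq2 size factors (-0.27, adjusted p = 0.00718) and without heterozygous cTEC library 3 (adjusted p = 0.0434). The interaction (log2 difference) of 0.39 passed, but not with no normalisation factors (adjusted p = 0.0739). Birc2, which encodes cIAP1, had 149 and 165 CPM in mTEC labelled heterozygous, against 196 and 211 CPM in mTEC labelled homozygous. It had 113, 122 and 111 CPM in heterozygous cTEC, against 143, 128 and 139.5 CPM in homozygous cTEC. It was lower in heterozygous libraries of both subsets, with log2 fold changes of -0.35 ± 0.07 in mTEC and -0.38 ± 0.06 in cTEC (adjusted p = 0.00127 and 0.000211). Xiap, the direct inhibitor of caspases, moved the other way in cTEC, with 179, 183 and 193 CPM in heterozygous cTEC, against 145, 144 and 154 CPM in homozygous cTEC (log2 fold change 0.19 ± 0.05, adjusted p = 0.0111), and overlapped in mTEC, with 109 and 119 CPM in mTEC labelled heterozygous, against 114 and 120.04 CPM in mTEC labelled homozygous. Its interaction (log2 difference) of -0.20 did not pass, although it did under the other scalings (-0.33 with the DESeq2 size factors, adjusted p = 0.00883). Between subsets, Birc3 was higher in mTEC than cTEC with log2 fold changes of 1.73 ± 0.07 in heterozygous and 1.34 ± 0.07 in homozygous mice, and Birc2 with 0.36 and 0.33. Xiap was lower in mTEC, with log2 fold changes of -0.78 in heterozygous and -0.58 in homozygous mice.

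**Figure D3:**
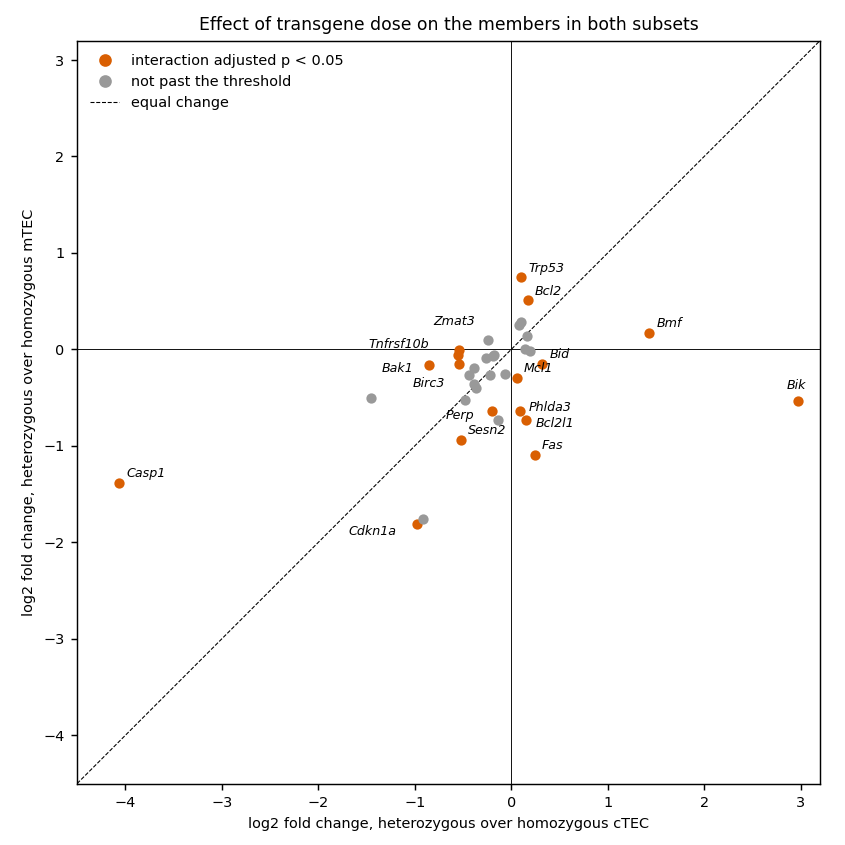
Log2 fold change of heterozygous over homozygous mTEC (vertical) against that of heterozygous over homozygous cTEC (horizontal), with 1 point per member; orange points passed the interaction test and the dashed line marks equal change. Casp1 lies far to the left of the line, at -4.06 in cTEC and -1.38 in mTEC, and Bik far to the right, at 2.97 and -0.54, the first a fitted value on 20 heterozygous and 2 homozygous counts.

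Across both subsets, 10 members were called lower in heterozygous libraries of mTEC and of cTEC: Mdm2, Cdkn1a, Ccng1, Sesn2, Perp, Pmaip1, Cflar, Casp1, Casp12 and Birc2. They are 55.6% of the 18 lower in mTEC, 58.8% of the 17 lower in cTEC and 27.8% of all members, where 7.57% of all genes tested were lower in both. No test was made of that difference. Cdkn1a, Sesn2, Cflar, Casp1 and Birc2 kept both calls under every alternative run. The cTEC calls of Mdm2, Perp and Pmaip1 and the mTEC calls of Ccng1 and Casp12 each ended under some alternative. Bcl2 was called higher in both, as were 9.11% of all genes. Bik was called higher in cTEC and lower in mTEC, as were 4.3% of all genes, but it reached the filter on low counts through mTEC alone and its cTEC call rests on 20 heterozygous against 2 homozygous counts. No member was called lower in cTEC and higher in mTEC, as 5.06% of all genes were. Bcl2l11, Casp6 and Fadd passed in neither dose comparison. Bik, Bcl2a1a and Hrk reached the filter through mTEC alone, so that they had to be higher there and are left out of the next counts. Of the other 33 members, 16 were higher in mTEC than cTEC at both doses, among them 4 of the 6 remaining BH3-only genes and 2 of the 3 remaining pro-survival genes, where 34.8% of all genes were higher at both. There were 7 lower at both, against 27.2% of all genes: Ccng1, Sesn1, Sesn2, Bad, Bcl2, Casp9 and Xiap. Genes that reached the filter through a single subset were not left out of the all-gene shares of 34.8% and 27.2%. Over all 36 members, with Bik, Bcl2a1a and Hrk included again, the groups did not overlap for 31 in heterozygous and 32 in homozygous mice. Of all genes, 81.6% and 85.5% did not overlap. Bik, Bcl2a1a and Hrk were at the filter level in all mTEC and no cTEC libraries, so their groups could not overlap.

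**Figure D4:**
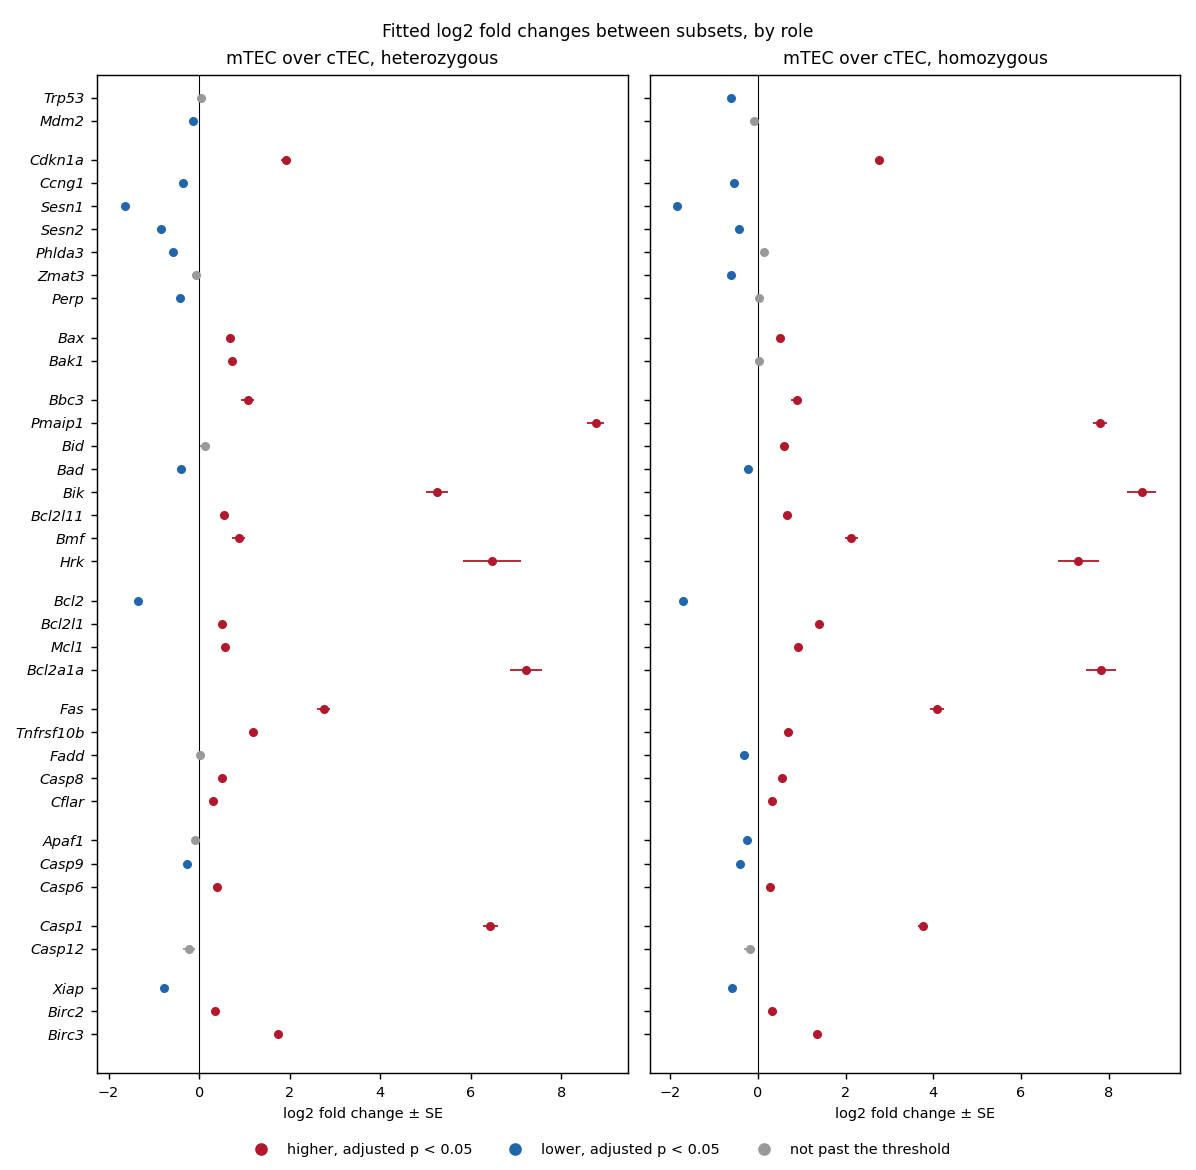
Fitted log2 fold changes with their SE of mTEC over cTEC in heterozygous (left) and homozygous mice (right), ordered by role. Pmaip1 lies beyond 5 in both panels, as do Bik, Bcl2a1a and Hrk, which reached the filter on low counts through mTEC alone, and Casp1 at 6.43 and 3.76, while Bcl2 and Sesn1 lie below -1 in both.

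In the deletion experiment none of the 33 members tested passed in either direction; 1.97% of all 15224 genes did, 0.282% higher and 1.69% lower. Leaving out any single library other than control library 5 moved that count over all genes by over 1.5 times, to between 0 and 188 higher and between 27 and 732 lower, and no member passed in any of these fits. Bik, Bcl2a1a and Hrk were too low to be tested. The members' median log2 fold change was 0.00 against 0.01 over all genes, and 5 members had an unadjusted p under 0.05: Fas, Phlda3, Zmat3, Casp9 and Casp12. DESeq2 called 2, Casp12 higher and Casp9 lower, and limma-voom none. With a replicate block by library number in the edgeR fit, Fas, Casp12 and Perp were called higher (adjusted p = 0.0128, 0.0302 and 0.0464). The labels give no pairing of libraries. Casp12 had 99.7, 67.02, 66.4, 86.5 and 83.9 CPM in Foxn1-deleted cTEC, against 63.2, 46.6, 54.8, 57.4 and 33.3 CPM in control cTEC. Every Foxn1-deleted library lay above every control library, and the difference (log2 fold change) of 0.64 ± 0.17 did not pass by edgeR (adjusted p = 0.0846). Casp9 had 36.8, 37.2, 35.00, 38.7 and 36.3 CPM in Foxn1-deleted cTEC, against 42.2, 42.3, 39.8, 40.6 and 42.7 CPM in control cTEC, with every Foxn1-deleted library below every control library (log2 fold change -0.20 ± 0.06, adjusted p = 0.116). These were the only members whose groups did not overlap, against 5.94% of all genes.

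Fas had 19.2, 7.35, 17.4, 13.2 and 12.4 CPM in Foxn1-deleted cTEC, against 12.1, 4.97, 10.3, 8.20 and 8.00 CPM in control cTEC (log2 fold change 0.65 ± 0.29, adjusted p = 0.256), with overlap. Taken by library number, each Foxn1-deleted library had more Fas than its control, and Fas passed with the replicate block given above. Phlda3 had 132, 112, 106, 132 and 159 CPM in Foxn1-deleted cTEC, against 112, 105, 96.1, 91.8 and 111 CPM in control cTEC (log2 fold change 0.29 ± 0.11, adjusted p = 0.204), and Zmat3 had 34.6, 37.3, 30.5, 32.8 and 37.5 CPM in Foxn1-deleted cTEC, against 48.6, 42.6, 36.5, 34.3 and 39.02 CPM in control cTEC (-0.24 ± 0.11, adjusted p = 0.242), both with overlap. Perp averaged 546 ± 75.6 CPM in Foxn1-deleted and 435 ± 82.6 CPM in control cTEC (SD, n = 5 libraries a group), with overlap (log2 fold change 0.31 ± 0.14, adjusted p = 0.270). Cdkn1a had 44.5, 15.9, 36.96, 37.9 and 40.3 CPM in Foxn1-deleted cTEC, against 40.1, 14.4, 32.7, 24.7 and 39.2 CPM in control cTEC. Its lowest library was number 2 in each group, and the groups overlapped (log2 fold change 0.19 ± 0.32, adjusted p = 0.786). Trp53 averaged 122 ± 16.2 CPM in Foxn1-deleted and 120.3 ± 15.6 CPM in control cTEC (SD, n = 5 each), Mdm2 81.97 ± 4.51 and 84.8 ± 5.05 CPM, and Casp1 19.98 ± 6.52 and 15.6 ± 5.12 CPM, none past the threshold. Members that did not pass by edgeR may still differ by amounts within these errors: the approximate 95% interval of the log2 difference was -0.21 to 0.20 for Trp53 and -0.23 to 0.88 for Casp1. The sum of 9 fibroblast markers was 953 to 1624 CPM in Foxn1-deleted and 402 to 994 CPM in control cTEC, and that of thymocyte markers 63.1 to 427 and 67.1 to 539 CPM, with no marker of either list past the threshold. Their part in the values of this experiment was not tested.

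Other genes of both pathways were read from lists of 30 further p53 targets, of which 28 were tested, and 31 further apoptosis genes, of which 30 were tested in the transgenic libraries and 27 in the deletion experiment. Among the further p53 targets, 4 were higher and 10 lower in heterozygous than homozygous mTEC. There were 10 higher and 8 lower in heterozygous than homozygous cTEC. The share called was below the 59.7% of all genes in mTEC, and in cTEC it was 64.3%, against 42.8% of all genes. The smallest adjusted p in mTEC belonged to Gdf15, a secreted stress cytokine (log2 fold change -2.16, adjusted p = 8.14e-07), and Cd82, a tetraspanin (-0.81, adjusted p = 8.31e-06), both lower, and to Xpc, a DNA damage sensor (0.56, adjusted p = 0.000295), and Mdm4, a p53 inhibitor (0.59, adjusted p = 0.00335), both higher. In cTEC they belonged to Trp53i11 (log2 fold change 1.15, adjusted p = 4.57e-08) and the kinase gene Plk2 (1.54, adjusted p = 1.98e-06), both higher, and to Dcxr (-1.49, adjusted p = 4.32e-07) and the nuclease gene Aen (-0.64, adjusted p = 9.16e-07), both lower. The median log2 fold change of the list was -0.10 in mTEC and 0.12 in cTEC, against 0.01 and 0.00 over all genes. The interaction passed for 5 with the higher and 9 with the lower change in mTEC, led by Aen (log2 difference 0.64, adjusted p = 9.34e-05), Dcxr (0.90, adjusted p = 0.00222), Plk2 (-2.03, adjusted p = 8.39e-06) and Trp53i11 (-1.02, adjusted p = 1.28e-05). Between subsets 9 were higher and 10 lower in heterozygous and 11 higher and 6 lower in homozygous mTEC than cTEC. The share called for the interaction was above the 42.5% of all genes. Between subsets it was 67.9% in heterozygous and 60.7% in homozygous mice, against 72.0% and 82.6% of all genes. After deletion, Ephx1, which encodes an epoxide hydrolase, was the only one past the threshold, 3.57% of those tested against 1.97% of all genes. It averaged 153 ± 16.1 CPM in Foxn1-deleted and 97.1 ± 17.9 CPM in controls (SD over n = 5 libraries of each group, with log2 fold change 0.63 and adjusted p = 0.0317). Without Foxn1-deleted library 1, 4 or 5, 0 of all genes were called higher, so the Ephx1 call ended in each of those fits.

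Among the further apoptosis genes, 4 were higher and 11 lower in heterozygous mTEC, and 2 higher and 11 lower in heterozygous cTEC. The share called was below the 59.7% of all genes in mTEC. In cTEC it was 43.3%, near the 42.8% of all genes. In mTEC the smallest adjusted p belonged to Bnip3, a hypoxia-induced mitophagy receptor (log2 fold change -1.22, adjusted p = 3.58e-07), and Bcl2a1b (-1.90, adjusted p = 1.42e-06), both lower, and to Casp2 (0.52, adjusted p = 1.7e-05) and Birc5, which encodes survivin (0.98, adjusted p = 0.000355), both higher. In cTEC it belonged to Bnip3l (log2 fold change -0.89, adjusted p = 1.54e-07) and Bnip3 (-0.91, adjusted p = 4.2e-07), both lower, and Traf1 (1.51, adjusted p = 7.03e-06) and Casp2 (0.19, adjusted p = 0.00831), both higher. The list's median was -0.09 in mTEC and -0.14 in cTEC. The interaction passed for 8 with the higher and 2 with the lower change in mTEC, led by Bnip3l (log2 difference 0.80, adjusted p = 4.37e-05) and Traf1 (-2.71, adjusted p = 4.02e-07). Between subsets 13 were higher and 8 lower in heterozygous and 9 higher and 11 lower in homozygous mTEC, led by Bcl2a1d and Traf1 (both higher) and Tnfrsf1a and Bnip3l (both lower) at both doses. The share called was 33.3% for the interaction, against 42.5% of all genes. Between subsets it was 70.0% in heterozygous and 66.7% in homozygous mice, against 72.0% and 82.6% of all genes. After deletion only Bnip3l passed, 3.7% of those tested against 1.97% of all genes. It averaged 189.98 ± 13.5 CPM in Foxn1-deleted and 389.96 ± 143 CPM in controls (SD over n = 5 libraries of each group; log2 fold change -1.07, adjusted p = 0.0365).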

How the data were processed

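Whole-number read counts per gene were deposited by the authors as 1 table for all libraries, with no normalisation in the values. The submitters' processing notes name TopHat2 2.0.10 and featureCounts and the mouse builds mm10 and GRCm38; neither the annotation nor the use of strand is stated there or in the labels. The ChIP and chromatin accessibility samples of the series were not analysed here. Library columns were assigned to groups by the group names in their headers, and every library column was used.

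The test was edgeR 4.0.16 under R 4.3.3 (TMM normalisation, filterByExpr with a minimum count of 10 and a minimum total of 15, quasi-likelihood test, two-sided, Benjamini-Hochberg adjustment over all genes tested, threshold 0.05). The deletion experiment was fitted on its 10 libraries, and the transgenic comparisons in 1 fit of 4 groups over 10 libraries, so that groups of 2 share the spread of all 4. The SE is the log2 fold change divided by the square root of the F statistic. CPM divide counts by the library total. With 20719630 to 22372633 counts per library, intervals on ratios of low counts (95%, exact) cover counting error only. No pair of libraries within a group was alike to within sampling noise. The steps were tested on simulated data.

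Alternatives were the DESeq2 size factors, no filter, DESeq2 1.42.0, limma-voom (limma 3.58.1), a replicate block, no normalisation factors and leaving out each library. The 36 members and all gene lists were chosen with earlier results of these data known. Members past the threshold in any comparison are given with values in every library, and of other pathway genes at most 2 per list, comparison and direction, those with the smallest adjusted p, are named. Promoter sequences come from RefSeq (GRCm38.p6), the build of the count table's notes.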

Additional observations from a re-analysis of the deposited data

Results flagged for a closer look

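Single libraries of the deletion experiment stood apart from the rest of their group for 4 of the 68 groups of member values examined, by the gap to the nearest library relative to the range of the group; chance flags about 1 in 20 groups. Cdkn1a was lowest in Foxn1-deleted cTEC library 2, at 15.9 CPM, with the others at 37.0 to 44.5 CPM. Bax was highest in Foxn1-deleted cTEC library 5, at 36.8 CPM, with the others at 29.8 to 31.3 CPM. Bik was highest in Foxn1-deleted cTEC library 1, at 0.323 CPM, with the others at 0.0913 to 0.145 CPM. Sesn2 was highest in control cTEC library 5, at 78.8 CPM, with the others at 64.9 to 67.6 CPM.

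The effect of dose differed between mTEC and cTEC for 17 members by edgeR's quasi-likelihood interaction test. That is 47.2% of the members, near the 42.5% of all genes called. The calls of Bcl2, Bid, Birc3 and Sesn2 each ended under some alternative run. The log2 fold change was higher in mTEC than in cTEC for Casp1 (log2 difference 2.68), Bak1 (0.70), Trp53 (0.65), Zmat3 (0.54), Tnfrsf10b (0.49), Birc3 (0.39) and Bcl2 (0.34). It was lower in mTEC for Bik (-3.51, a fitted value that rests on 20 heterozygous and 2 homozygous cTEC counts), Fas (-1.33), Bmf (-1.26), Bcl2l1 (-0.89), Cdkn1a (-0.84), Phlda3 (-0.73), Bid (-0.47), Perp (-0.44), Sesn2 (-0.41) and Mcl1 (-0.35).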

How the results depend on the processing

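In the deletion experiment no member passed in the fit as designed; DESeq2 called 1 higher and 1 lower, and over all genes it called 327 higher and 781 lower, against 43 and 257 by edgeR, while limma-voom called 15 and 89. Leaving out single libraries left the member counts at 0 and gave 0 to 188 genes higher and 27 to 732 lower. Correlations of same-numbered libraries ran from 0.0853 to 0.754 over the 5 pairs of the deletion experiment. There 8 of 10 libraries correlated best with their own number. In the transgenic groups they ran from 0.0517 to 0.0567 in cTEC and stood at 0.0706 in mTEC, where all 6 and all 4 libraries did so. With 2 libraries a group, the mTEC correlations share 1 size and differ only in sign, so those 4 are 1 result. Not every pair was over 0.1, so the numbers were not taken as pairs. With a replicate block, 3 members were higher after deletion, Fas (log2 fold change 0.64, adjusted p = 0.0128), Casp12 (0.65, adjusted p = 0.0302) and Perp (0.32, adjusted p = 0.0464), with 398 genes higher and 822 lower. The block also made calls of Casp6 for dose in cTEC and of Pmaip1 and Xiap for the interaction (adjusted p = 0.0355, 0.0313 and 0.0403), and ended those of Fadd and Apaf1 between subsets in homozygous mice and of Mdm2 in heterozygous mice (adjusted p = 0.0757, 0.0515 and 0.223). With no normalisation factors 13 members were higher in heterozygous than homozygous cTEC and 7 lower in mTEC than cTEC of homozygous mice, where Mdm2 turned to 0.15 and Bad to 0.023, and the interaction was higher for 3106 genes. The DESeq2 size factors and DESeq2 each left 2 members higher in heterozygous than homozygous mTEC, where DESeq2 called 3430 genes higher, and DESeq2 called 3177 genes with a higher interaction. The cause of these shifts was not tested.

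Leaving out single libraries gave 3 to 6 members higher and 15 to 18 lower in the cTEC dose comparison (3366 to 4061 and 3583 to 4293 genes), 3 to 5 and 15 to 19 in the mTEC one (4494 to 5784 and 4788 to 6156 genes), and 6 to 8 and 8 to 10 for the interaction (3829 to 4848 and 2889 to 3327 genes). Between subsets it gave 20 to 20 members higher and 7 to 11 lower in heterozygous mice, and 19 to 21 and 9 to 11 in homozygous mice. Calls that held under every alternative run numbered 14 of 23 for dose in cTEC, 15 of 22 for dose in mTEC, 13 of 17 for the interaction, 26 of 30 between subsets in heterozygous mice and 26 of 31 in homozygous mice. Fitted log2 fold changes between subsets of genes with 4 or fewer cTEC counts in a group varied most, from 7.31 to 10.1 for Hrk in homozygous mice.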
